A study of Mus musculus with 4 samples.

Results

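The genes described here are 5 components of the renin-angiotensin system of the brain, *Agt*, *Ace*, *Agtr1a*, *Agtr2* and *Mas1*, out of 32285 genes counted in single nuclei of the mouse posterior hindbrain. They were taken by name, and each was followed through all 14 annotated cell types and all 134 neuronal clusters of the 39461 nuclei that the authors kept. Angiotensinogen, the product of *Agt*, is cleaved by renin to angiotensin I, which angiotensin-converting enzyme (ACE, the product of *Ace*) turns into angiotensin II. Angiotensin II acts mainly through the AT1 receptor, which mice encode in 2 genes, *Agtr1a* and *Agtr1b*, and through the AT2 receptor, the product of *Agtr2*, whereas *Mas1* encodes the Mas receptor, for which angiotensin-(1-7) is a ligand. In the brain, astrocytes are known to make angiotensinogen, and AT1 receptors of the area postrema and the nucleus of the solitary tract (NTS) are known for their part in the control of blood pressure and fluid balance.

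The 4 libraries came from hindbrain tissue that held the area postrema and NTS of adult mice of both sexes aged 12 to 20 weeks, all given CNO, the ligand of the designer receptors, at 3 mg per kg 1 h before death and kept without food. In 2 libraries the mice were AgRP-Gq;POMC-Gi, heterozygous for 4 alleles. AgRP-IRES-Cre+/- switches on the activating receptor hM3DGqfl/- in AgRP neurons, and POMC-Dre+/- switches on the inhibitory receptor hM4DGifl/- in POMC neurons. The other 2 were controls, labelled wild type, whereas the study's breeding scheme gives all offspring both receptor alleles, so that controls would lack only the recombinases. Tissue was pooled within a group of 2 mice, and which mice entered which library is not stated. What part of the spread between libraries is technical and what part lies between animals was not tested.

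Libraries held 9723 to 10051 nuclei and 48904976 to 53089402 unique molecular identifiers (UMIs, each standing for 1 captured RNA molecule). Levels are counts of a gene per 1000000 UMIs of the same nuclei (CPM), given as mean ± SD of the 4 libraries and in the order control replicates 1 and 2, AgRP-Gq;POMC-Gi replicates 1 and 2. Neurons held 61.8% of all UMIs, oligodendrocytes 22.6%, astrocytes 7.85% and choroid plexus 1.75%, the background for any share of a gene's UMIs given here. Of 46 marker genes, 41 were highest in the cell type they stand for. The astrocyte markers *Slc1a3* and *Gfap* were higher in tanycyte-like cells (1122 and 332 CPM) than in astrocytes (539 and 99.7 CPM). Of 4 tanycyte-like markers 2 were highest in that type, *Rax* and *Crym*, at 4.86 and 9.37 CPM, so these markers set the 2 types apart poorly. Choroid plexus nuclei numbered 2, 436, 6 and 329. *Xist* was at 713, 471, 729 and 22.4 CPM, far lower in AgRP-Gq;POMC-Gi replicate 2 than in the other 3 libraries. In neurons alone it was at 507, 319, 541 and 16.2 CPM. The 2 AgRP-Gq;POMC-Gi libraries were thus unlike in *Xist*, whereas both control libraries were high in it. The sex of the mice in each library is not stated. The part of this imbalance in differences between the groups was not tested. Between 0.884% and 0.990% of a library's barcodes also occurred in another library.

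Reads of *Agtr1a* and *Agtr1b* must be told apart before either gene can be described. Their coding sequences have 1077 bases each, of which 99 differ (90.8% identical). The stretch of 91 bases, the length of the sequenced read, in which they differ least is printed here because it is where a read would be easiest to assign to the wrong gene. It lies in the single coding exon of each gene, at chr13:30381233-30381323 (plus strand) for *Agtr1a* and chr3:20316071-20316161 (minus strand) for *Agtr1b* on GRCm38, with the 1 differing base in capitals.
Agtr1a: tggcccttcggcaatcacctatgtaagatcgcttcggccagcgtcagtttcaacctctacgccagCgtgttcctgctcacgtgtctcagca
Agtr1b: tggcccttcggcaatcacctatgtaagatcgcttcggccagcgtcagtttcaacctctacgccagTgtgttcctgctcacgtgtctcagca
The median over all such stretches of the coding sequence was 7 differing bases, and over the annotated transcripts the 2 genes shared 0 stretches of 91 bases. The sense intronic gene *Gm48161* lies within *Agtr1a* on the same strand, over 6825 bases of which 0 are in exons of *Agtr1a*. To which gene reads there were counted, if to any, was not tested.

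*Agt* (ENSMUSG00000031980, chromosome 8 of GRCm38, 124556534 to 124569706, minus strand) was chiefly an astrocyte gene. Astrocytes held 3305 of its 4669 UMIs (70.8%). Their level was 199.98, 194, 224 and 217 CPM in the 4 libraries (209 ± 14.03 CPM), and 45.1% of 4378 astrocytes had a UMI (95% Clopper-Pearson interval 43.6% to 46.6%). Such intervals cover counting error only. Tanycyte-like cells came next with 204.9, 99.9, 102 and 101 CPM, and their range overlapped that of astrocytes through control replicate 1, which had 26 nuclei and 20 *Agt* UMIs there. Control replicate 1 also had 216 CPM in choroid plexus, from its 2 nuclei, against 6.17, 0 and 5.76 CPM in the others.

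The remaining types were far lower. Ependymal cells had 33.7 ± 16.2 CPM, mural cells, which wrap the vessel wall, 32.9 ± 6.34 CPM and endothelial cells 28.3 ± 11.8 CPM, and these 3 did not differ beyond their spread. Oligodendrocytes had 11.7 ± 1.62 CPM and neurons 4.14 ± 0.516 CPM. In neurons 3.91% of nuclei had an *Agt* UMI at a median depth of 8704 UMIs, against 3.10% of oligodendrocytes at 2460 UMIs. With every nucleus thinned to 800 UMIs the shares were 0.431% in neurons, 1.11% in oligodendrocytes and 15.97% in astrocytes. The neuronal share was thus below that of oligodendrocytes at equal depth. Set against 5 astrocyte markers (*Slc1a2*, *Slc1a3*, *Aqp4*, *Gja1*, *Gfap*), *Agt* had 66.3 UMIs per 1000 marker UMIs in neurons, 67.7 in oligodendrocytes and 46.1 in astrocytes. Of 133 neuronal clusters of 20 nuclei or more, 124 had an *Agt* UMI, the median cluster had 4.19 CPM, and the 3 above 20 CPM, with means of 20.4 to 23.5 CPM, held 4 or 5 UMIs each. Cluster 53 (Gal/Dkk2) held the most, 19 UMIs in 17 of 151 nuclei, at 15.9, 17.9, 0 and 22.0 CPM. In cluster 76, 4 of 9 UMIs lay in 1 nucleus. The part of RNA from astrocytes in the neuronal values was not tested.

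**Figure D1:**
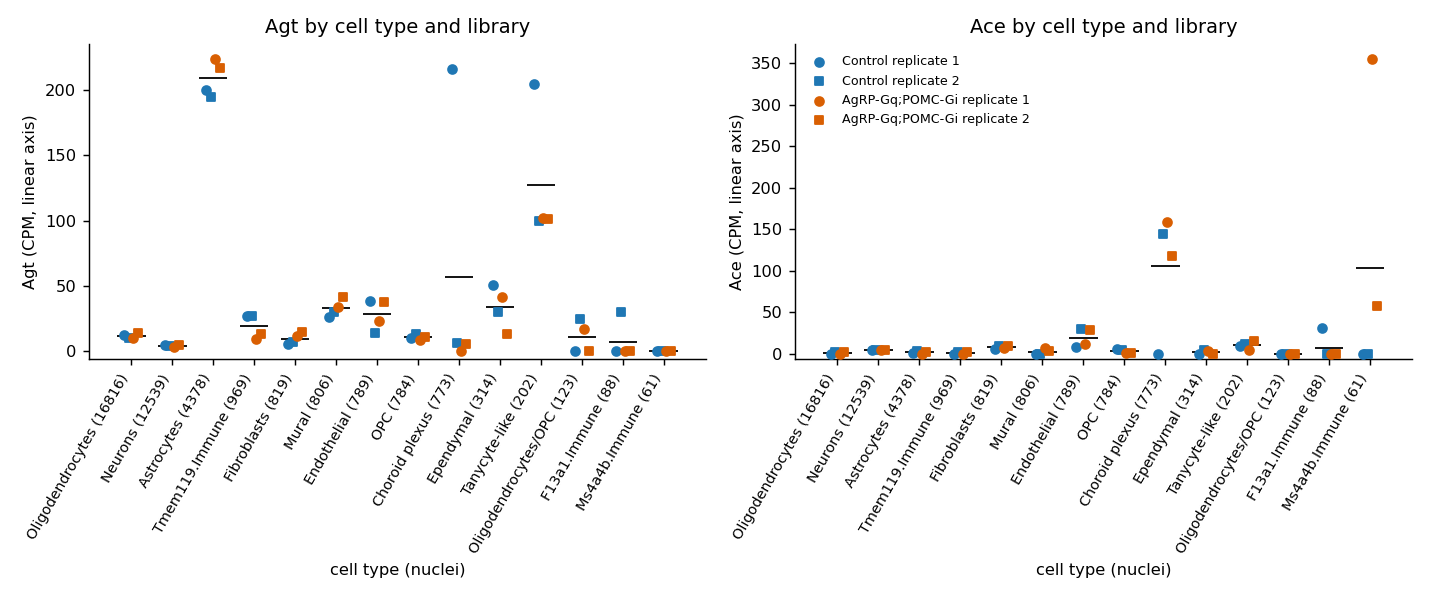
Levels of *Agt* (left) and *Ace* (right) in CPM on linear axes for each cell type, with the number of nuclei in parentheses; points are the 4 libraries (blue, control; orange, AgRP-Gq;POMC-Gi; circles, replicate 1; squares, replicate 2) and lines their mean. *Agt* stands at 194 to 224 CPM in astrocytes, and *Ace* stands at 118 to 159 CPM in choroid plexus in 3 libraries and at 0 in the library with 2 such nuclei, with 1 Ms4a4b.Immune value of 355 CPM above them.

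Among the 11 astrocyte clusters, *Agt* spanned from 93.3 ± 12.6 CPM in cluster 22 to 535 ± 171 CPM in cluster 48. Cluster 48 had 460, 520, 777 and 384 CPM, and 69.4% of its 157 nuclei had a UMI. Cluster 20 followed with 374, 404, 521 and 457 CPM and cluster 54 with 304, 289, 696 and 452 CPM. These 3 overlapped one another, whereas cluster 16, at 259 to 327 CPM, overlapped cluster 54 but lay below clusters 48 and 20 in every library. At the other end clusters 15, 21, 17 and 22 had means of 93.3 to 145.7 CPM. One of the tanycyte-like clusters, 141, reached 285 ± 92.9 CPM and thus lay within the astrocyte range.

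The clusters rich in *Agt* had their own marker profile. Cluster 48 had the highest *Gfap*, the intermediate filament of fibrous and reactive astrocytes, at 1619 ± 339 CPM, and the highest *Aqp4*, the water channel of astrocyte endfeet, at 1406 ± 312 CPM. Cluster 54 had the highest *Gja1*, which encodes connexin 43, at 731 ± 119 CPM. Cluster 20 had the highest *Slc1a3*, a glutamate transporter, at 1227 ± 225 CPM. Across the 11 cluster means, Pearson's r with *Agt* was 0.86 for *Gja1*, 0.79 for *Aqp4*, 0.74 for *Slc1a3*, 0.73 for *Gfap* and -0.74 for *Slc1a2*, the main glutamate transporter of astrocytes. These values are descriptions, because the clusters were built from the same nuclei and share the 4 libraries. Over the 14 cell types, the genes with the most similar profile were *Wfs1* (r = 0.93), *Fgfr3* (0.91), *Slc6a11* (0.89), *Slc25a5* (0.89) and *Fjx1* (0.87) among 17468 genes compared. Among these types, the choroid plexus mean of *Agt*, 57.1 CPM, rests largely on the 216 CPM from 2 nuclei of control replicate 1. Over all choroid plexus nuclei pooled the level was 6.50 CPM.

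**Figure D2:**
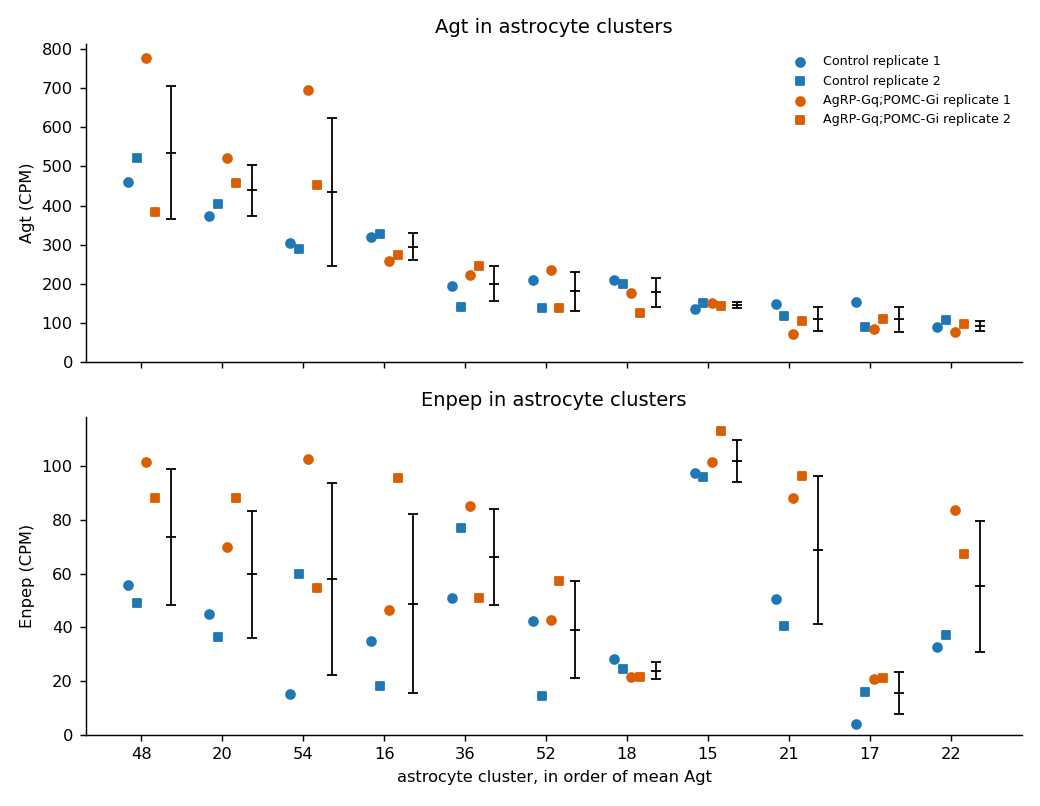
Levels of *Agt* (top) and *Enpep* (bottom) in CPM in the 11 astrocyte clusters, ordered by mean *Agt*; points are libraries (blue, control; orange, AgRP-Gq;POMC-Gi) and black bars the mean ± SD of 4 libraries. *Agt* falls from a mean of 535 CPM in cluster 48 to 93.3 CPM in cluster 22, and both AgRP-Gq;POMC-Gi libraries lie above both control libraries for *Enpep* in 8 of 11 clusters.

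*Ren1*, the gene of renin, the enzyme that acts on angiotensinogen, had 8 UMIs in 7 nuclei of the whole dataset, too few to place in any cell type.

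*Ace* (ENSMUSG00000020681, chromosome 11, 105967945 to 105989964, plus strand) had its highest mean level in choroid plexus. Neurons, the type with most UMIs of all genes, held 48.5% of its UMIs at a low level. Choroid plexus, the secretory epithelium of the ventricles, had 0, 145, 159 and 118 CPM, of which the 0 came from 2 nuclei and the 159 from 4 UMIs in 6 nuclei. In all, 41.9% of 773 choroid plexus nuclei had an *Ace* UMI (interval 38.4% to 45.5%), and they held 469 of 1259 UMIs. Its clusters 34, 29 and 23 had a UMI in 42.3%, 36.5% and 45.1% of nuclei. The Ms4a4b.Immune type, with 61 nuclei, had 0, 0, 355 and 57.5 CPM from 9 UMIs in 4 nuclei, and endothelial cells, a classical site of ACE, had 19.8 ± 11.5 CPM. Among fibroblasts, cluster 69 stood out with 14 of the 18 UMIs of that type. An antisense gene, *Gm11651*, overlaps *Ace* over 17750 bases, 3506 of them in its exons. Whether counting used the strand is not given in the sources used here, and whether reads of *Gm11651* were counted to *Ace* was not tested.

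Neurons had 4.62, 5.43, 4.64 and 4.88 CPM of *Ace* (4.89 ± 0.380 CPM) and 610 UMIs, 48.5% of all, below the neuronal share of UMIs over all genes. Endothelial cells had 8.18, 30.2, 11.6 and 29.1 CPM, and tanycyte-like cells 10.2, 12.5, 4.86 and 15.3 CPM. Fibroblasts had 5.56, 9.54, 6.77 and 9.76 CPM. These types were above neurons in every library, from 28, 8 and 18 UMIs. A UMI was found in 4.67% of neurons and 0.398% of oligodendrocytes, and after thinning to 800 UMIs in 0.311% and 0.119%. In oligodendrocytes the level was 0.464, 2.60, 0.632 and 2.59 CPM, and in astrocytes 1.30, 3.26, 0.299 and 2.79 CPM. Both were higher in the 2 libraries with most choroid plexus nuclei, where the 4 choroid plexus markers (*Ttr*, *Folr1*, *Kl*, *Aqp1*) summed to 3352 and 2099 CPM in oligodendrocytes, against 6.50 and 25.1 CPM in the other 2. In neurons these markers summed to 5.06, 1012, 10.8 and 588 CPM. Neuronal *Ace* was also lower in the 2 libraries with few choroid plexus nuclei (4.62 and 4.64 CPM) than in the other 2 (5.43 and 4.88 CPM), by less than 1 CPM, and the part of choroid plexus RNA in the neuronal level was not tested.

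Within neurons *Ace* was spread thinly. Among the 133 neuronal clusters of 20 nuclei or more it was at 0 in 18, and the median cluster had 4.55 CPM. The 3 clusters with the most *Ace* UMIs, which are not those highest in mean level, held 7.05% of its neuronal UMIs. In mean level the highest were cluster 142 (Cpne4/Trhde) with 16.4 ± 4.11 CPM and 166 (Otof/Hpse2) with 15.7 ± 11.2 CPM. Cluster 142 rests on 6 UMIs in 60 nuclei, cluster 166 on 7 UMIs in 44, and in library values they overlap each other and the next named cluster, 175 (Lama1/Sntg2), at 13.9 ± 15.0 CPM. By transmitter class the means were 4.83 ± 0.422 CPM in glutamatergic and 4.98 ± 0.580 CPM in GABAergic clusters, with GABAergic ones higher in 3 of 4 libraries. A cluster was called glutamatergic where *Slc17a6*, the gene of a vesicular glutamate transporter, was at least 4-fold *Slc32a1*, that of the vesicular GABA transporter, and GABAergic where the reverse held. Clusters with fewer than 20 UMIs of both genes were not called. They had 11.8, 6.97, 8.52 and 5.36 CPM of *Ace* (8.17 ± 2.76 CPM) from 35 UMIs, above both classes in every library. Mixed clusters, which met neither rule, had 2.97 ± 0.845 CPM.

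*Agtr1a* (ENSMUSG00000049115, chromosome 13, 30336441 to 30382867, plus strand) was rare and neuronal. Of its 303 UMIs, 283 (93.4%) were in neurons, at 2.16, 2.30, 1.91 and 2.66 CPM (2.26 ± 0.315 CPM), and 1.57% of 12539 neurons had a UMI. In oligodendrocytes 0.0178% of nuclei had one, and after thinning to 800 UMIs the shares were 0.136% and 0.00595%. Higher means in mural cells (3.21 ± 2.83 CPM) and oligodendrocyte precursor cells (2.83 ± 3.25 CPM) rest on 3 and 8 UMIs and overlap the neuronal values, and that of tanycyte-like cells (2.56 ± 5.12 CPM) on 1 UMI. Fibroblasts and choroid plexus had none, which allows a share of nuclei with a UMI of up to 0.366% and 0.388% when the limit is set at 3 nuclei, and of up to 0.449% and 0.476% by the Clopper-Pearson interval.

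Unlike the other members, *Agtr1a* was gathered in a few neuronal clusters. It was at 0 in 75 of 133, and 7 clusters held at least 50% of its neuronal UMIs. Of the 8 clusters named for *Agtr1a*, 4 were glutamatergic and 4 GABAergic. As classes, glutamatergic clusters had 2.76 ± 0.886 CPM and GABAergic ones 1.97 ± 0.812 CPM, the latter higher in 1 of 4 libraries. The 3 highest clusters, all glutamatergic, held 34.3% of the neuronal *Agtr1a* UMIs. Cluster 97 (Gfral/Sctr) had 177, 29.3, 21.4 and 21.2 CPM, cluster 170 (Myo5b/Otof) had 108.9, 37.1, 14.03 and 71.0 CPM, and cluster 76 had 59.4, 27.5, 57.1 and 31.2 CPM. Their ranges overlap, so the order among them is not settled by 4 libraries. Cluster 97 led through control replicate 1, whose 177 CPM came from 12 UMIs in 2 of 7 nuclei, and cluster 170 was highest without that library and also after thinning to 800 UMIs.

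These clusters differed in how many of their nuclei held the receptor RNA. In cluster 76, 47 UMIs lay in 28 of 120 nuclei (23.3%), with at most 4 in 1 nucleus. In cluster 170, 21 UMIs lay in 11 of 42 nuclei (26.2%). In cluster 97, by contrast, 29 UMIs lay in 8 of 101 nuclei (7.92%), 7 of the 8 had more than 1 UMI and the highest had 7. GABAergic clusters followed, led by cluster 75 (Qrfprl/Baiap3) with 6.46, 50.6, 5.71 and 8.39 CPM and cluster 95 (Tfap2b/Esr1) with 8.80, 18.5, 9.28 and 17.9 CPM. Cluster 75 was thus high in 1 library, whereas in cluster 95 the libraries lay closer together.

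**Figure D3:**
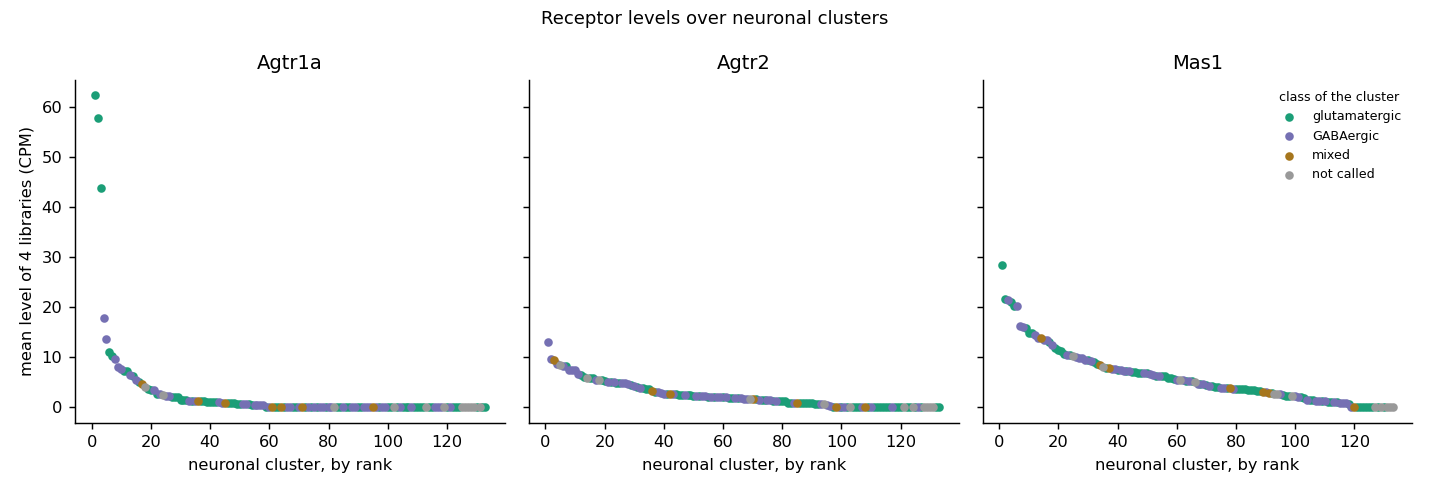
Mean level of 4 libraries (CPM, linear axis shared by the panels) of *Agtr1a*, *Agtr2* and *Mas1* in 133 neuronal clusters (those of 20 nuclei or more), ranked within each gene and coloured by transmitter class. *Agtr1a* drops from 62.3 CPM to 0 within 58 clusters, *Agtr2* starts at 13.03 CPM, and *Mas1* starts at 28.4 CPM and is at 0 in 15 clusters.

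*Dbh*, which encodes dopamine beta-hydroxylase, the enzyme that makes noradrenaline, had 75.2 CPM in cluster 76 against 31.0 CPM in cluster 97. Cluster 170 had 0 CPM of it. Over all neurons, 22 of 197 nuclei with an *Agtr1a* UMI (11.2%) also had a *Dbh* UMI, against 105 of 12342 without (0.851%). The 2 sets differed in depth, with medians of 11449 and 8664 UMIs. Within cluster 76 the shares with a *Dbh* UMI were 46.4% and 37.0%, at median depths of 11164 and 8650.5 UMIs, and within cluster 97 they were 4 of 8 and 18 of 93. *Th*, the gene of the enzyme that begins catecholamine synthesis, had a UMI in 6.09% of neurons with and 2.20% without *Agtr1a*. Its shares were 9 of 28 and 15 of 92 nuclei in cluster 76, and 1 of 8 and 21 of 93 in cluster 97. With 8 nuclei in that set of cluster 97, no direction can be read there for *Th* or *Dbh*. Neurons with *Agtr1a* were not of 1 transmitter class. *Slc17a6* had a UMI in 41.6% of neurons with and 35.6% without it, *Gad2*, a gene of GABA synthesis, in 48.2% and 38.4%, and *Slc32a1* in 18.3% and 20.0%. *Tfap2b* had a UMI in 27.9% and 9.58%. Of the other clusters that the study discusses, the Gcg/Reln cluster had 9 *Agtr1a* UMIs in 4 of 89 nuclei, 82 (Tal1/Nell1) and 63 (Ebf2/Th) had 1 UMI each and the Rxfp1/Ebf2 cluster had none in 58 nuclei. Over 111 neuronal clusters with at least 50 nuclei, the genes most similar to *Agtr1a* were *Atp7a* (r = 0.50), *Npffr1* (0.46), *Maoa* (0.46), *Gpr1* (0.45) and *Ddc* (0.41). *Maoa* and *Ddc* encode enzymes that break down and make monoamines. In counts this sparse these correlations are weak and are given as a description.

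*Agtr1b* (ENSMUSG00000054988, chromosome 3, 20314473 to 20367177, minus strand), the other AT1 gene, had 378 UMIs, 241 of them in neurons, and was led by another cluster. Cluster 83, which the authors labelled Agtr1b/Cntnap5b, had 32.9, 81.8, 83.7 and 38.0 CPM from 70 UMIs in 39 of 113 nuclei, and held 29.0% of the neuronal UMIs. In the 3 clusters richest in *Agtr1a* (97, 170 and 76) *Agtr1b* had 0 UMIs, while in cluster 83 *Agtr1a* had 10 UMIs. Clusters 75, 83 and 86 were among the 8 highest for both genes. Of 197 neurons with an *Agtr1a* UMI, 11 also had an *Agtr1b* UMI (5.58%, and 7.19% of the 153 with *Agtr1b*). Over all neurons 1.57% had an *Agtr1a* UMI, and the median depth was 11893 UMIs in neurons with *Agtr1b* and 8664 in those without. Outside neurons *Agtr1b* was found in fibroblast cluster 93 (52 UMIs in 30 of 105 nuclei) and in Oligodendrocytes/OPC cluster 138 (30 UMIs in 20 of 61 nuclei). Single libraries carried most of both, with 40 of the 52 UMIs from 65 nuclei of control replicate 2 and 22 of the 30 from 32 nuclei of AgRP-Gq;POMC-Gi replicate 1. In cluster 138 the other UMIs were 7 in 27 nuclei of control replicate 2 and 1 in 2 nuclei of AgRP-Gq;POMC-Gi replicate 2, and control replicate 1 had no nucleus there.

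**Figure D4:**
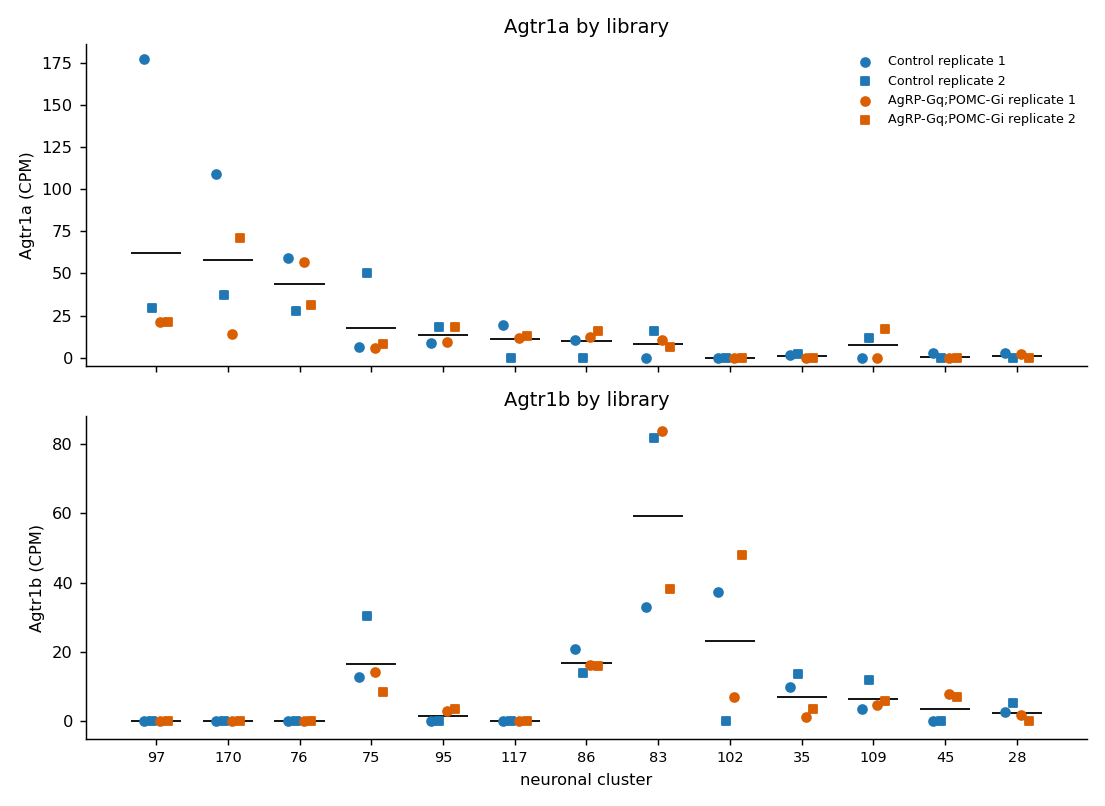
Levels of *Agtr1a* (top) and *Agtr1b* (bottom) in CPM in the neuronal clusters that are among the 8 highest named for either gene; points are libraries (blue, control; orange, AgRP-Gq;POMC-Gi) and lines their mean. Clusters 97, 170 and 76 carry *Agtr1a* and have no *Agtr1b* UMI, and cluster 83 is highest for *Agtr1b* at 59.1 CPM.

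*Agtr2* (ENSMUSG00000068122, X chromosome, 21484544 to 21489164, plus strand) was neuronal as well, but diffuse. Neurons held 309 of 332 UMIs (93.1%), at 2.38, 2.70, 1.74 and 3.09 CPM (2.48 ± 0.569 CPM). A UMI was found in 2.37% of neurons and 0.0773% of oligodendrocytes, and after thinning in 0.183% and 0.0238%. No cluster with at least 5 positive nuclei passed 9.59 CPM. Cluster 87 (Col25a1/Nox4) had 11.2, 10.2, 6.97 and 10.0 CPM, cluster 84 (Zfp804b/Lemd1) had 6.10, 12.1, 2.62 and 17.1 CPM and cluster 165 (Hcrtr2/L3mbtl4) had 7.36, 7.28, 0 and 19.6 CPM. The 3 ranges overlap. In cluster 87 each of the 9 positive nuclei held 1 UMI, and over all neurons 309 UMIs lay in 297 nuclei.

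Of the 8 clusters named for *Agtr2*, 5 were GABAergic, 2 glutamatergic and 1 mixed. GABAergic clusters had 3.05 ± 0.723 CPM and glutamatergic ones 2.08 ± 0.562 CPM, and GABAergic clusters were higher in 4 of 4 libraries, a difference that was not tested. *Slc6a5*, which encodes the glycine transporter of inhibitory neurons, had a UMI in 48.5% of neurons with and 32.3% of neurons without an *Agtr2* UMI, at median depths of 11347 and 8648 UMIs. *Dbh* was found in 1 of 297 neurons with *Agtr2*. Both *Agtr1a* and *Agtr2* UMIs were found in 5 neurons, 2.54% of those with *Agtr1a* and 1.68% of those with *Agtr2*. These shares were close to those of all neurons, 2.37% with an *Agtr2* UMI and 1.57% with an *Agtr1a* UMI. The most similar genes were *Gm48784* (r = 0.42), *Prc1* (0.41), *Gdpd1* (0.40), *Tmem185b* (0.39) and *Uqcc3* (0.39), again weak.

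*Mas1* (ENSMUSG00000068037, chromosome 17, 12841079 to 12868143, minus strand) had 913 UMIs, of which 871 (95.4%) were in neurons, at 6.81, 6.45, 7.64 and 6.78 CPM (6.92 ± 0.508 CPM). A UMI was found in 5.72% of neurons and in 0.0178% of oligodendrocytes. After thinning to 800 UMIs the neuronal share was 0.486%, and oligodendrocytes had none. The mean of 8.25 CPM in Ms4a4b.Immune cells came from 1 UMI and that of 6.30 ± 6.96 CPM in fibroblasts from 9. *Mas1* reached 118 of 133 neuronal clusters, with a median of 4.68 CPM. Cluster 137 (Mecom/Col12a1) was highest at 9.40, 36.2, 49.2 and 18.8 CPM, with a UMI in 21 of 62 nuclei (33.9%). Clusters 173 (Mecom/Oprk1), 74 (Rbm20/Nox4), 94 (Zfp804b/Zmat4) and 165 followed with means of 20.2 to 21.5 CPM, and none differed from its neighbours beyond the spread. Clusters 97 and Rxfp1/Ebf2 had no *Mas1* UMI. Clusters 76 and 170 had 3 each, which came to 2.01 ± 2.59 and 4.44 ± 8.87 CPM, and in cluster 170 all 3 were from AgRP-Gq;POMC-Gi replicate 2, at 17.7 CPM. Glutamatergic and GABAergic clusters had 7.11 ± 1.31 and 6.82 ± 0.999 CPM, the latter higher in 2 of 4 libraries.

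The genes most similar to *Mas1* over neuronal clusters lay beside it on the chromosome. They were *Airn* (r = 0.75), *Gm49959* (0.71), *Igf2r* (0.71), *Gm49958* (0.63) and *Prim2* (0.55) among 15292 genes compared, and the first 4 are on chromosome 17. *Airn*, a long noncoding RNA of the imprinted *Igf2r* region, is annotated on the plus strand at 12741311 to 12860136 and overlaps *Mas1* over 19058 bases, 2290 of them in its exons. A miRNA gene on the strand of *Mas1*, *Gm24085*, covers 116 bases outside its exons and is not among the genes counted. *Igf2r*, *Gm49959* and *Gm49958* are on the minus strand like *Mas1*, 71414, 49418 and 40283 bases away from it. *Airn* had a UMI in 89.0% of neurons with and 50.8% of neurons without a *Mas1* UMI, at median depths of 12192 and 8514 UMIs, and its level, which is per UMI, was 334 ± 38.5 and 125 ± 6.60 CPM. *Igf2r* had 115 ± 13.6 and 52.1 ± 3.21 CPM in the same 2 sets of nuclei, whereas *Prim2*, on chromosome 1, had 39.0 ± 5.38 and 30.6 ± 0.553 CPM. The sources used here do not state whether counting used the strand. Whether reads of *Airn* in the shared stretch were counted to *Mas1* was not tested, and the levels of *Mas1* are uncertain to that extent.

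**Figure D5:**
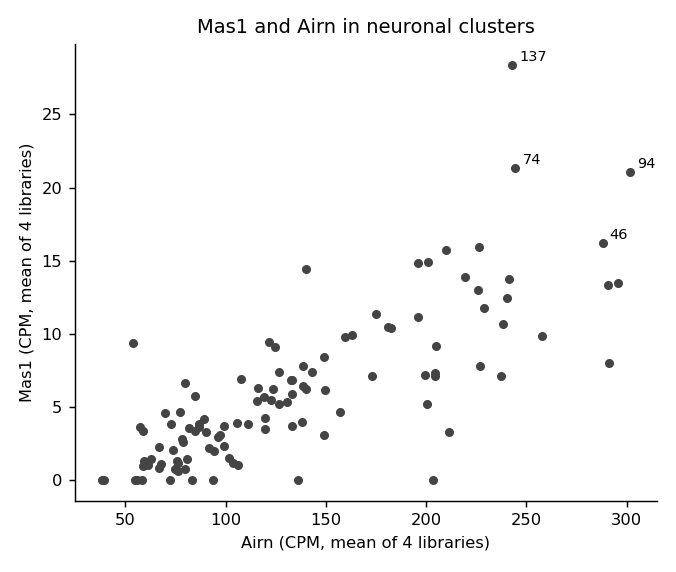
Mean levels of 4 libraries (CPM, linear axes) of *Airn* and *Mas1* in the 111 neuronal clusters with at least 50 nuclei, each point 1 cluster, with clusters 137, 74, 94 and 46 marked. The clusters highest in *Mas1* lie among those highest in *Airn*, whose median was 122 CPM and whose highest cluster, 94, had 302 CPM.

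Whether the genes changed when AgRP neurons were activated while POMC neurons were inhibited was tested on UMIs summed per library (n = 2 per group) by the quasi-likelihood test of edgeR, in every type and cluster with at least 5 nuclei in each library, for genes with at least 20 UMIs. With 2 libraries against 2, an exact permutation test over libraries cannot go below p = 0.333. Of 16 tests of members by cell type, 0 passed an adjusted p of 0.05 after Benjamini-Hochberg adjustment over all genes, against 0.091% of all tests in the 13 cell types tested, with 1 at an unadjusted p under 0.05 and 0 called by DESeq2. In sums over nuclei such as these, fewer expressing cells and less RNA per cell cannot be told apart.

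*Agt* in astrocytes came to 197 ± 4.05 CPM in control libraries, against 221 ± 4.88 CPM with AgRP-Gq;POMC-Gi (log2 fold change 0.22, SE 0.13, adjusted p = 0.720). The groups did not overlap there, which held, in this direction, for 14.7% of the 15390 genes tested in astrocytes. Cluster 20, rich in *Agt*, made up 5.71% and 8.95% of astrocytes in control libraries, against 15.4% and 15.8% with AgRP-Gq;POMC-Gi, and its part in the difference was not tested. Over the 11 clusters the AgRP-Gq;POMC-Gi mean exceeded that of controls in 6 and was lower in 5. The unadjusted p under 0.05 was that of *Agt* in Tmem119.Immune cells, the microglia-like type, at 26.9 and 26.7 against 9.44 and 13.1 CPM (log2 fold change -1.21, SE 0.52, adjusted p = 0.953), from 38 UMIs, a lack of overlap that 18% of genes shared there in that direction. In neurons the log2 fold changes were 0.09 for *Agtr1a* (SE 0.23), -0.02 for *Agtr2* (SE 0.27), 0.18 for *Mas1* (SE 0.16), -0.02 for *Ace* (SE 0.17) and -0.13 for *Agt* (SE 0.18), and the smallest adjusted p of the 5 was 0.861. *Ace* in choroid plexus was not tested, since a library there had 2 nuclei.

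In single clusters, 0 of 25 tests passed, with 3 at an unadjusted p under 0.05, 0 called by DESeq2 and 0.0645% of all tests called in these clusters. *Agtr1a* in cluster 97 had 103 ± 105 CPM in control libraries, against 21.3 ± 0.132 CPM with AgRP-Gq;POMC-Gi (log2 fold change -1.89, SE 0.66, adjusted p = 0.520). The groups did not overlap, as for 18.7% of genes tested in that cluster in this direction, and the control mean rests on the 2 nuclei of replicate 1 named above. Without control replicate 2 the log2 fold change was -3.01 (adjusted p = 0.00512), with replicate 1 as the lone control, and over all libraries left out in turn it ranged from -3.01 to -0.36. *Agt* in astrocyte cluster 54 had 297 ± 10.9 and 574 ± 172 CPM (log2 fold change 0.98, SE 0.31, adjusted p = 0.138). Leaving out AgRP-Gq;POMC-Gi replicate 2 gave it a log2 fold change of 1.32 (adjusted p = 0.0268), with replicate 1 alone in its group, and leaving out AgRP-Gq;POMC-Gi replicate 1 gave 0.60 (adjusted p = 0.918), the ends of the range over libraries left out. *Agt* in cluster 21 had 133 ± 20.0 and 88.6 ± 23.4 CPM (log2 fold change -0.54, SE 0.24, adjusted p = 0.756). *Agtr1a* in cluster 76 had 43.5 ± 22.5 and 44.1 ± 18.3 CPM (log2 fold change 0.16, SE 0.52, adjusted p = 0.994).

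The wider pathway list held 26 genes, the 5 members included, of which 22 could be tested in at least 1 cell type. Of 130 tests 1 passed, that of *Enpep* in astrocytes, with DESeq2 calling the same number, and the median log2 fold change of the list was -0.01. *Enpep* (chromosome 3, 129269175 to 129332720, minus strand) encodes glutamyl aminopeptidase, which turns angiotensin II into angiotensin III. It rose in astrocytes from 42.2 and 37.8 CPM in controls to 61.2 and 80.4 CPM with AgRP-Gq;POMC-Gi (log2 fold change 0.87, SE 0.14, adjusted p = 0.0198), where 0.357% of 15390 genes were called. Both AgRP-Gq;POMC-Gi libraries were above both control libraries in 8 of 11 astrocyte clusters and below them in 1, cluster 18, against 11.7% to 16.9% of all genes that lay above in a cluster. The clusters are parts of the same libraries whose sums gave the call, so this count is a description and adds no independent test. Without TMM factors the log2 fold change was 0.82 (adjusted p = 0.0587). Leaving out AgRP-Gq;POMC-Gi replicate 2, the library low in *Xist*, gave 0.76 (adjusted p = 0.0677), and over all libraries left out in turn it ranged from 0.76 to 0.96. Cluster 15, the highest in *Enpep* at 102 ± 7.71 CPM, made up 12.8%, 10.98%, 11.7% and 21.7% of astrocytes, and cluster 17, the lowest at 15.5 ± 7.93 CPM, 14.1%, 15.4%, 14.8% and 5.57%. Both shares stood apart in AgRP-Gq;POMC-Gi replicate 2, the library with the most *Enpep*, and their part in the difference was not tested.

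*Enpep* was highest in mural cells, at 258, 280, 237 and 172 CPM, where the groups did not overlap in the other direction, as for 19.2% of genes there, but the test was not passed (log2 fold change -0.41, SE 0.24, adjusted p = 0.874). The 5 mural markers, all detected in astrocytes, summed there to 38.5 and 47.9 CPM in controls, against 51.4 and 56.8 CPM with AgRP-Gq;POMC-Gi. Most of this was *Pdgfrb*, at 31.2 and 36.3 CPM in controls, against 45.999 and 50.2 CPM with AgRP-Gq;POMC-Gi. The other mural markers did not rise with it. *Acta2* had 1.95 and 2.76 CPM in controls, against 1.79 and 1.27 CPM, and *Abcc9* was likewise lower in both AgRP-Gq;POMC-Gi libraries. *Rgs5* and *Myh11* overlapped between the groups, highest in control replicate 2 and lowest in AgRP-Gq;POMC-Gi replicate 1. *Rgs5* had 2.69 to 5.26 CPM against 1347 CPM in mural cells. *Enpep* had 1135 UMIs per 1000 mural marker UMIs in astrocytes and 46.5 in mural cells.

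The other pathway enzymes differed in the types where they were highest. *Anpep*, an aminopeptidase, was found in mural cells (58.7 ± 12.97 CPM) and fibroblasts (43.2 ± 14.7 CPM), whose libraries overlapped. *Mme*, which encodes neprilysin, was neuronal, with 95.3% of its 2870 UMIs in neurons at 22.0 ± 2.22 CPM. *Prcp*, *Rnpep* and *Ctsd* were highest in immune types, led by *Ctsd*, the gene of the protease cathepsin D, at 488 ± 60.9 CPM in Tmem119.Immune cells. *Prcp* had 187 ± 81.7 CPM and *Rnpep* 147 ± 34.7 CPM in F13a1.Immune cells. *Lnpep*, which encodes the angiotensin IV-binding aminopeptidase, was found in all 14 types at 20 UMIs or more, and was likewise highest in immune types, with 634 ± 220.2 CPM in Ms4a4b.Immune, 290 ± 88.9 CPM in F13a1.Immune and 289 ± 31.996 CPM in Tmem119.Immune cells, against 124 ± 4.96 CPM in neurons. *Prep*, *Nln* and *Dpp3*, genes of further peptidases, had 17.6 ± 1.97, 33.7 ± 1.88 and 17.4 ± 1.22 CPM in neurons. Among types with at least 20 UMIs they were highest elsewhere, *Prep* in fibroblasts (27.7 ± 6.27 CPM), *Nln* in ependymal cells (75.2 ± 19.7 CPM) and *Dpp3* in Tmem119.Immune cells (22.3 ± 8.51 CPM). *Atp6ap2*, the prorenin receptor, had 121 and 118 CPM in choroid plexus of the 2 libraries with most such nuclei, against 145 CPM on average in F13a1.Immune cells, and its 216 and 239 CPM in choroid plexus of the other 2 libraries came from 2 and 6 nuclei. *Mtus1*, the gene of an AT2-interacting protein, had 334 ± 45.6 CPM in endothelial cells and *Agtrap*, that of an AT1-associated protein, 29.1 ± 9.48 CPM in fibroblasts, both the highest among types with at least 20 UMIs of the gene. None of these was called between the groups in any cell type by the test with all 4 libraries, the filter at 20 UMIs and no replicate block. *Rnpep* in oligodendrocytes came to 148 and 118 CPM in controls, against 89.8 and 68.8 CPM with AgRP-Gq;POMC-Gi (log2 fold change -0.68, SE 0.18, adjusted p = 0.320, and 0.0596 by DESeq2), a lack of overlap that 21.5% of genes shared there in that direction. It passed without a filter (log2 fold change -0.69, adjusted p = 1.24e-05) and under a replicate block (-0.69, adjusted p = 0.00732). It also passed when any 1 library other than control replicate 1 was left out, with log2 fold changes of -0.41 to -0.98, but not without control replicate 1 (-0.49, adjusted p = 0.686). *Mtus1* and *Nln* in oligodendrocytes had log2 fold changes of 0.25 (adjusted p = 0.707) and -0.36 (adjusted p = 0.787). *Mtus1* passed without AgRP-Gq;POMC-Gi replicate 2 (0.35, adjusted p = 0.00627) and *Nln* without AgRP-Gq;POMC-Gi replicate 1 (-0.78, adjusted p = 0.000726), each with a lone library in its group.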

How the data were processed

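The authors prepared nuclei with the 10x Genomics 3′ kit, and per the submitters' processing notes used Cell Ranger 7.0.0 and Seurat 4.3.0 on GRCm38. The deposited values are UMI counts per gene and barcode, not normalized. The deposited table of nuclei gives UMI totals and gene counts, the mitochondrial percent, the nuclei kept (at least 800 UMIs, at least 500 genes, at most 10% mitochondrial, with doublets called by the authors), clusters and cell types, all taken as given. UMI totals of the matrices equalled the table in 44303 of 44303 barcodes.

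The members and gene lists were chosen with earlier results of these data known. UMIs were summed per library and type or cluster. In R 4.3.3, genes of at least 20 UMIs were tested by edgeR 4.0.16 (TMM factors). The SE beside a log2 fold change is its absolute value divided by the square root of the F statistic of that test. It is not a spread between libraries. Alternatives were DESeq2 1.42.0, other filters, a replicate block and leaving out a library. The authors' mixed model (nebula) was not run here. Clusters named are the 8 highest per member with at least 20 nuclei, 5 nuclei with a UMI and 2 libraries, plus those the study discusses. Pathway genes named were found in 5% or more of a type's nuclei, or are *Agtr1b* or *Ren1*. Some genes that meet the rule are not reported here. Similarity is Pearson's r of log2(mean CPM + 1) over genes with at least 200 UMIs. The 5 genes ranked highest were named. Positions are those of GENCODE M21. The tests were tried on simulated data. Scripts ran in Python 3.11.15 with numpy, pandas and scipy.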

Additional observations from a re-analysis of the deposited data

Results flagged for a closer look

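For *Agt*, both AgRP-Gq;POMC-Gi libraries lay on the same side of both control libraries in opposite directions in different cells. The log2 fold change was 0.22 in astrocytes and 0.47 in mural cells, where they lay above, and -1.21 in Tmem119.Immune cells, where they lay below. Of all genes tested there, 14.7%, 16.1% and 18% did so in the same direction. Among astrocyte clusters it was 0.37 in cluster 20, 0.47 in cluster 36 and 0.98 in cluster 54, against -0.22 in cluster 16, -0.32 in cluster 18 and -0.54 in cluster 21. The shares of all genes that lay on that side were 16.4%, 16.3% and 15.4% in the first 3 clusters and 21.8%, 23.1% and 21.5% in the others, so that such a pattern is common in 2 libraries against 2. For *Mas1* the libraries lay above in neuronal clusters 38 (log2 fold change 0.64), 39 (0.51) and 74 (1.09) and below in clusters 33 (-0.22), 46 (-0.61) and 51 (-0.68). Of all genes, 15.9%, 12.5% and 14.3% lay above in the first 3 clusters and 19.1%, 16.9% and 20.6% below in the others. In cluster 74, with 13, 1, 9 and 10 UMIs, the log2 fold change was 3.17 without control replicate 1 and 0.57 without control replicate 2, with 0.60 and 1.77 without AgRP-Gq;POMC-Gi replicates 1 and 2, and 0 of these passed the test. The differences between cell types and between clusters were not tested, and none of these values passed an adjusted p of 0.05 in its own test (edgeR, all 4 libraries).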

How the results depend on the processing

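With 2 libraries a group, depth and the number of nuclei limit what the receptor genes can show, and 0 calls do not show that levels were alike. Of 40 neuronal clusters named, 22 stayed among the 8 highest of their gene after thinning to 800 UMIs, and 28 to 34 did so without each library. Shares of nuclei depended on the measure. Thinned, they were 15.97% for *Agt* in astrocytes, 10.9% for *Ace* in choroid plexus, 0.136% for *Agtr1a*, 0.183% for *Agtr2* and 0.486% for *Mas1* in neurons. With at least 2 UMIs asked, they were 17.8%, 12.8%, 0.375%, 0.0957% and 0.973%. Without each library in turn they were 43.8% to 46.4%, 38.3% to 44.4%, 1.49% to 1.65%, 2.16% to 2.67% and 5.62% to 5.82%.

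Calls of members by cluster numbered 0 to 1 without each library, and calls in the pathway list 1 to 3. The pathway list had 0 calls without TMM factors and 2 without a filter. Under a replicate block it had 2, each time *Enpep* in astrocytes and *Rnpep* in oligodendrocytes, and members had 0 by type and by cluster. The labels do not say that the numbers pair the libraries, and deviations of same-numbered libraries correlated at 0.254 in oligodendrocytes, 0.0581 in neurons and 0.221 in astrocytes. With 2 libraries a group the other pairing gives the same values with the sign turned, so they cannot show that libraries were paired. Replicates 2 of both groups also held most choroid plexus nuclei (436 and 329, against 2 and 6).

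Directions of values that passed no test turned without a library, and the cause was not tested. The log2 fold change ranged from -0.13 to 0.10 for *Ace*, -0.11 to 0.27 for *Agtr1a* and -0.43 to 0.29 for *Agtr2* in neurons, with 0.07 for *Agtr2* without control replicate 2. It ranged from -1.05 to 1.79 for *Ace* in oligodendrocytes, with -0.65 without control replicate 1, from -0.89 to 0.16 for *Agt* in tanycyte-like cells and from -0.42 to 0.72 for *Agtr1a* in cluster 76, with -0.37 without AgRP-Gq;POMC-Gi replicate 1.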
